A study of Mus musculus with 14 samples.

Results

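AP-1 and immediate early genes, most of them switched on within minutes of a stimulus, were followed in central and effector regulatory T cells (Tregs). The cells were with or without the autophagy gene Atg14. The genes were the AP-1 subunits Fos, Fosb, Fosl2, Jun, Junb and Jund and the stress-induced factor Atf3. Also included were the transcription factors Egr1 and Nr4a1 and the phosphatase gene Dusp1. The 10 members were the rows of the expression matrix whose first gene symbol was one of these names, out of 22203 transcript clusters with a gene symbol. Each had 1 row, so no choice between rows arose. Membership went by gene name, and the list was drawn up with earlier results of these data known.

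The samples came from mixed bone marrow chimeras. CD45.2+ marrow from Foxp3Cre Atg14+/fl donors (control, heterozygous for Atg14) or from Foxp3Cre Atg14fl/fl donors (Atg14 KO) was combined in equal parts with CD45.1+ wild-type marrow and given to sublethally irradiated Rag1-/- recipients, which reconstituted for 6 to 8 weeks. Both genotypes therefore carry the Cre, which is driven by Foxp3 and deletes only in cells that have expressed it. The methods add that some experiments used Atg14fl/fl mice with an Atg14+/- or Atg14-/- allele, and report no notable phenotype differences. Whether donors of these arrays were among them is not stated. Rag1-/- hosts lack T and B cells of their own but keep their myeloid cells and innate lymphocytes. CD45.2+ CD4+ Foxp3-YFP+ cells were sorted into CD44low CD62Lhigh central Tregs (cTregs) and CD44high CD62Llow effector Tregs (eTregs), and their RNA was hybridised to Clariom S mouse arrays, 1 array a sample. There were 4 control cTreg, 3 KO cTreg, 4 control eTreg and 3 KO eTreg arrays, 14 in all. By the series description the cells were from spleen plus peripheral lymph nodes, by the methods from spleen. The study counts its replicates as chimera mice, 4 control and 3 KO, and sorted both subsets from them, but which cTreg array shares a mouse with which eTreg array is not stated. The methods give an age range for the mouse line and not for the donors and hosts of these arrays. All values are log2 signals as normalised by the authors. A gene was called when its log2 change was at least 0.5 in either direction with a Benjamini-Hochberg adjusted P below 0.05 over all 22203 clusters. The study's methods name this change with either an adjusted or an unadjusted P below 0.05. The unadjusted form, called the study threshold here, is given beside the adjusted one.

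AP-1 is a dimer of leucine zipper proteins. Fos family proteins cannot pair with themselves and bind DNA with a Jun partner, whereas Jun proteins also pair with each other and with ATF and BATF proteins. In T cells these genes respond to antigen receptor and costimulatory signals through MAP kinases and calcium, and AP-1 then acts with NFAT at many target genes. Atf3 answers several kinds of cellular stress and is inducible in many cell types, macrophages among them. Egr1 and Nr4a1 (Nur77) are rapid reporters of receptor signalling, and Dusp1 dephosphorylates and so switches off p38 and JNK kinases. Because mechanical and enzymatic tissue handling can also induce these transcripts, their level in sorted cells combines the state in the animal with what happened between harvest and lysis, which these arrays cannot tell apart.

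The promoters show what the members share in sequence. Windows of the 250 bases before the annotated start were taken from RefSeq on GRCm38.p6, and 9 of the 10 members had one. TGACG, the core of the site bound by CREB and ATF proteins, occurred on either strand in 6 of the 9 windows (Fos, Fosb, Junb, Atf3, Nr4a1 and Dusp1), against 17.8% of all 32851 windows. The AP-1 site TGANTCA was in none of the 9 and in 6.75% of all windows. TGACATCA, a variant that Jun carries, was found in the Jun window alone among the members and in 2.93% overall. A TATAA box sequence lay in the Fos window alone and in 22.8% of all windows. The motifs were chosen with the sequences in view and overlap where TGACG lies within the palindrome TGACGTCA, as in Dusp1. The windows of Fos, Jun, Atf3 and Dusp1 are printed because these genes span the patterns described next: a member that was called, a pair that was low on the same arrays, and the member with the narrowest range. Capitals mark any of the 4 motifs on either strand.
Fos (chr12:85473640-85473889, plus strand): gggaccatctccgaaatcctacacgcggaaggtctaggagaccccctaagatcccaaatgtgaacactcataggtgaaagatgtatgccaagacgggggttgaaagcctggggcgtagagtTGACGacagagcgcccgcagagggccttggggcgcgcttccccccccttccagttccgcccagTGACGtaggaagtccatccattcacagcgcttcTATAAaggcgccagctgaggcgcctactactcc
Jun (chr4:95052223-95052472, minus strand): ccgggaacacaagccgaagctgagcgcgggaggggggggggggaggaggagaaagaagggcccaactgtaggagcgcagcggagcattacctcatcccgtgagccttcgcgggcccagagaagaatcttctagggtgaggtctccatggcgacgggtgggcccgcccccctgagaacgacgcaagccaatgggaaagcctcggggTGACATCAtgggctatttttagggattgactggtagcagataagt
Atf3 (chr1:191183334-191183583, minus strand): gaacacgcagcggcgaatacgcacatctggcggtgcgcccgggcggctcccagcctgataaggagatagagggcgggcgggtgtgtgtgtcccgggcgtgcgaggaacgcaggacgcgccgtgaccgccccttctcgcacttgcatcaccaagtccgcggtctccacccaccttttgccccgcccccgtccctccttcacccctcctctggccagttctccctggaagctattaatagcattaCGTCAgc
Dusp1 (chr17:26508473-26508722, minus strand): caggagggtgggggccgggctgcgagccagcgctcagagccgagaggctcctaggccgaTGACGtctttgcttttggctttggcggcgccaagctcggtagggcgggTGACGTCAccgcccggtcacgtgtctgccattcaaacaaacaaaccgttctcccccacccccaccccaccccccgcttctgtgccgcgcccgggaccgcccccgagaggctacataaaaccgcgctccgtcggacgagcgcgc
A match is a string of letters and not evidence of binding.

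The cells and labels were checked first. Foxp3 averaged 12.81 ± 0.05 (SD, n = 4), 12.89 ± 0.17 (n = 3), 12.83 ± 0.07 (n = 4) and 12.90 ± 0.19 (n = 3) in control cTregs, KO cTregs, control eTregs and KO eTregs. Cd44, which was part of the gate, was higher in eTregs by 1.61 in controls (adjusted P = 0.000121) and by 1.80 in KO arrays (adjusted P = 0.00036). Atg14 was not lower in the arrays labelled KO: the KO minus control value was 0.32 in eTregs, with an adjusted P of 0.55, and 0.35 in cTregs, with an adjusted P of 1. Where its probes lie relative to the deleted part is not given in the sources used here, so this signal does not test the deletion, and "KO" below means labelled KO. The 12 monocyte and macrophage markers moved with subset and, in eTregs, with single arrays. Their mean signal was 7.95 to 8.19 in control cTregs, 8.16 to 8.36 in KO cTregs and 8.87 to 9.27 in control eTregs, and in KO eTregs it was 8.61, 10.63 and 10.60 on arrays 1, 2 and 3. KO eTreg 2 and 3 thus stood apart. The mean of the 7 dendritic cell markers also peaked on these arrays, at 8.99 and 9.27. It was 8.21 on KO eTreg 1 and 8.18 to 8.29 in control eTregs. Of the 7, 4 passed the study threshold for KO against control eTregs, and Siglech, a plasmacytoid dendritic cell receptor, was called (1.78, adjusted P = 0.000483). The rest did not rise: Flt3, Clec9a and Zbtb46 had estimates of -0.10, -0.08 and -0.04. Siglech was also high on KO eTreg 1, at 9.78 against 8.37 to 8.86 in control eTregs. Without KO eTreg 2 and 3 its estimate was 1.15, so KO eTreg 1 differed from controls in this marker too. Lists for other cell types also varied. The neutrophil mean was 7.43 on KO eTreg 2 and 3 against 7.10 to 7.30 in control eTregs. The B cell means were 8.66 and 8.69 there against 8.36 to 8.54. Erythroid means ran from 7.85 to 9.43 over the arrays. Of the CD8 T and NK list, Klrb1c was called higher in eTregs of controls (2.20) and KO (2.66). Cd8b1 (-0.62) and Prf1 (-1.30) were called lower in control eTregs, and no other was called between subsets. Because the marker means of KO eTreg 2 and 3 stood apart, estimates that involve KO eTregs are also given without these arrays. This was done for the members and their named relatives. It leaves 1 KO eTreg array that is assumed to vary like the other groups. A list of 12 heat shock genes, which respond to stress and handling, averaged 11.83 to 12.19 on the 8 control arrays. On KO arrays 1, 2 and 3 the mean was 11.85, 11.51 and 11.62 in cTregs and 11.92, 11.61 and 11.69 in eTregs. The KO arrays numbered 1 thus lay within the control range, and those numbered 2 and 3 lay below it in both subsets. All 12 estimates were below 0 for KO minus control in both subsets, and in each subset 4 of the 12 had an unadjusted P below 0.05, where 8.03% of all clusters did in eTregs and 4.01% in cTregs. None of the 12 was called. What part this has in the genotype values of the members was not tested.

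Atf3 was the most variable member and the only one called. Its signal was 8.23, 8.75, 8.65 and 8.83 in control cTregs and 9.26, 8.60 and 8.14 in KO cTregs. In eTregs it was 8.67, 9.32, 9.09 and 9.47 in controls and 9.19, 10.23 and 10.23 in KO. KO eTreg 2 and 3 were the highest of all 14 arrays, whereas KO eTreg 1 lay inside the control eTreg range and below KO cTreg 1. The range over all arrays was 2.09, wider than that of 98.0% of clusters, whose median range was 0.66. Within KO arrays, eTregs exceeded cTregs by 1.22 ± 0.30 (SE; 2.32-fold, 95% interval 0.58 to 1.85, adjusted P = 0.0435), although the arrays of the groups overlapped. In controls the same difference was 0.52 ± 0.26 (adjusted P = 0.435). KO eTregs exceeded control eTregs by 0.75 ± 0.28 (1.68-fold, unadjusted P = 0.017, adjusted P = 0.452), which passed the study threshold and not the adjusted one. In cTregs the genotype difference was 0.05 ± 0.28. The interaction, the subset difference in KO minus that in controls, was 0.70 ± 0.40 (adjusted P = 0.847; -0.0011 without KO eTreg 2 and 3), so the subset effect of Atf3 was not shown to differ between genotypes.

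The Atf3 call was lost without KO eTreg 2 or without KO eTreg 3, the arrays with the most myeloid signal, and in 10 of the 14 fits that left out 1 array. It was also lost when same-numbered cTreg and eTreg arrays were treated as pairs from 1 mouse (1.22, adjusted P = 0.0738). Leaving out both KO eTreg 2 and 3 brought the subset difference in KO to 0.52 (adjusted P = 0.834) and the genotype difference in eTregs to 0.05. Leaving out KO eTreg 1 instead raised the latter to 1.098 (adjusted P = 0.0378). In KO eTregs against control eTregs the 12 monocyte and macrophage markers had estimates of 0.04 to 1.59 with a median of 0.97, and 8 passed the study threshold. Between KO subsets they were 0.41 to 3.38 with a median of 1.64, and 6 were called. Between control subsets they were -0.06 to 3.39 with a median of 0.71, and 1 was called. The control subsets still differed in the mean of these markers, at 8.87 to 9.27 in eTregs and 7.95 to 8.19 in cTregs. The calls use a spread estimated over all groups, KO eTreg 2 and 3 included. The part of myeloid or dendritic cell RNA in the Atf3 signal was not tested. In bulk RNA, more cells of a type and more RNA per cell cannot be told apart.

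**Figure D1:**
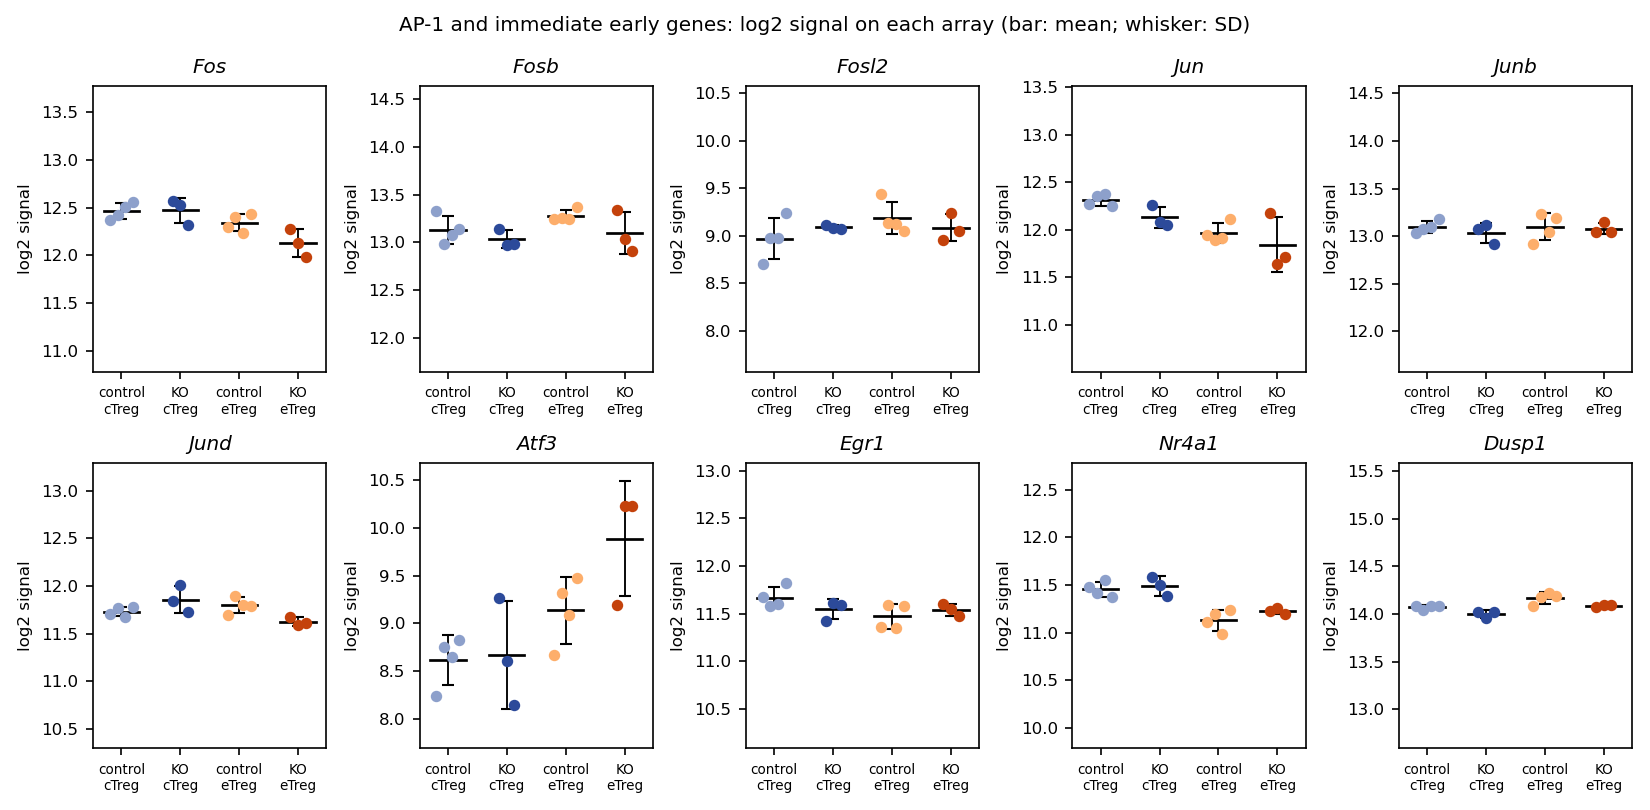
Log2 signal (y axis, the same height of 3 log2 units in every panel) of each member on each of the 14 arrays, by group (x axis); points are arrays, horizontal bars means and whiskers SD. Atf3 spans 2.09 units, with 2 KO eTreg arrays at 10.23, whereas Dusp1 spans 0.27.

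The Fos subunits changed little. Fos itself was 12.37, 12.42, 12.51 and 12.56 in control cTregs, 12.57, 12.53 and 12.32 in KO cTregs, 12.30, 12.40, 12.24 and 12.44 in control eTregs and 12.27, 12.13 and 11.99 in KO eTregs. All 3 KO eTreg arrays were below all 3 KO cTreg arrays, and the 2 lowest values of the 14 were KO eTreg 2 and 3. The subset difference was -0.35 ± 0.11 in KO (1.27-fold lower, adjusted P = 0.144; -0.20 without KO eTreg 2 and 3) and -0.12 ± 0.10 in controls (adjusted P = 0.746). KO minus control gave 0.01 ± 0.11 in cTregs and -0.21 ± 0.11 in eTregs (adjusted P = 0.646), and without KO eTreg 2 and 3 the eTreg value became -0.07. Fosb, which like Fos carries a transactivation domain, lay between 12.91 and 13.37 throughout. Its 2 lowest eTreg values were again KO eTreg 3 and 2, at 12.91 and 13.04, and its largest estimate was -0.18 ± 0.12 in KO against control eTregs (adjusted P = 0.769), which became 0.06 without those arrays. Fosl2 (Fra-2), which lacks that domain, lay between 8.71 and 9.44. Its subset difference in controls was 0.22 ± 0.12 (adjusted P = 0.515). In KO it was 0.00 ± 0.14, and -0.13 without KO eTreg 2 and 3.

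Among the Jun subunits, Jun, the strongest activator of the family, was lower in eTregs, though no estimate was called. Its signals were 12.27, 12.36, 12.38 and 12.25 in control cTregs, all above the 11.95, 11.89, 11.91 and 12.11 of control eTregs. KO cTregs gave 12.26, 12.08 and 12.05 and KO eTregs 12.17, 11.64 and 11.72, which overlapped through KO eTreg 1. The subset difference was -0.35 ± 0.12 in controls (1.27-fold lower, 95% interval -0.59 to -0.11, adjusted P = 0.135) and -0.29 ± 0.13 in KO (1.22-fold lower, adjusted P = 0.349). Without KO eTreg 1 the KO value was -0.45 (adjusted P = 0.0317, still short of the 0.5 required), and without KO eTreg 2 and 3 it was 0.04. As with Fos, the 2 lowest Jun signals of all arrays were those of KO eTreg 2 and 3, which had the highest Atf3. Genotype estimates for Jun were -0.12 ± 0.12 in eTregs and -0.18 ± 0.12 in cTregs, with adjusted P of 0.861 and 1, and without KO eTreg 2 and 3 the eTreg value turned to 0.21 (adjusted P = 0.869).

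**Figure D2:**
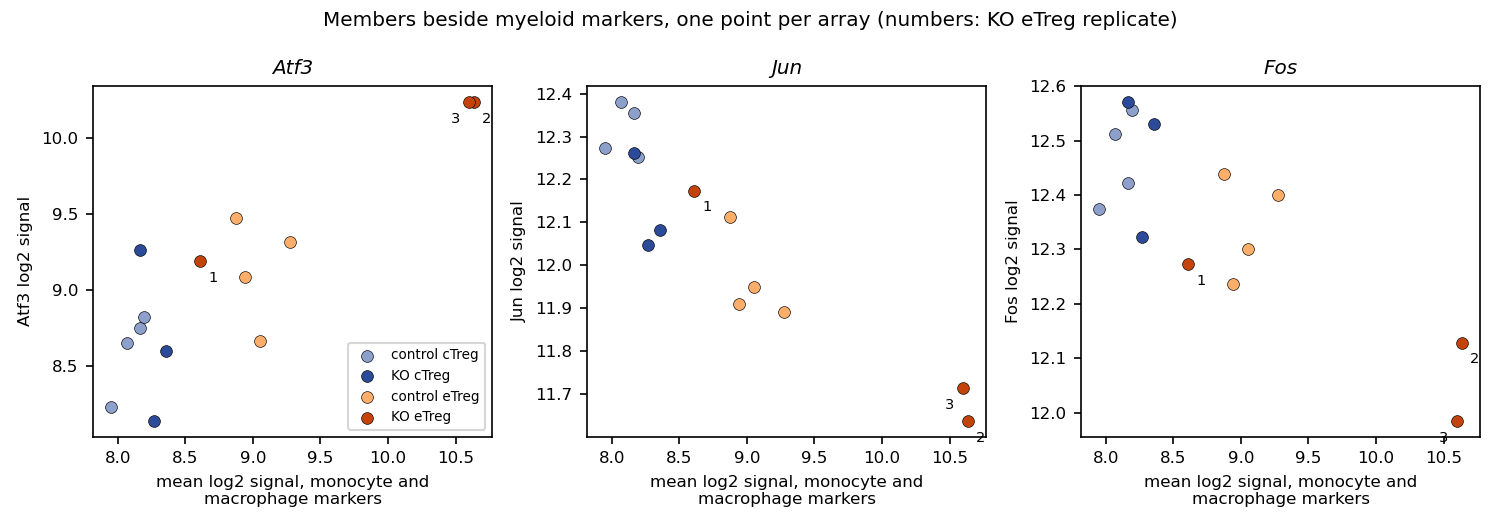
Log2 signals of Atf3, Jun and Fos (y axes) against the mean log2 signal of 12 monocyte and macrophage markers (x axis), 1 point an array, coloured by group, with KO eTreg arrays numbered. KO eTreg 2 and 3, at 10.63 and 10.60 on the x axis, hold the highest Atf3 and the lowest Jun and Fos values, and KO eTreg 1 sits at 8.61.

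Junb and Jund were flat by comparison. Junb, the Jun protein that partners BATF and is needed for effector Tregs, lay between 12.92 and 13.23 on all arrays. That range was below that of all but 2.04% of clusters. Its mean signal was above that of 99.3% of clusters, and its 4 estimates ran from -0.06 to 0.04. Without KO eTreg 2 and 3 those involving KO eTregs were -0.05 and 0.01. Jund, the most constitutive Jun protein, was 11.71, 11.77, 11.67 and 11.78 in control cTregs, 11.84, 12.01 and 11.72 in KO cTregs and 11.69, 11.90, 11.81 and 11.79 in control eTregs. In KO eTregs it was 11.68, 11.59 and 11.62, below every control eTreg and every KO cTreg array. The genotype difference in eTregs was -0.17 ± 0.10 (1.13-fold lower, adjusted P = 0.715) and in cTregs 0.12 ± 0.10. In limma its interaction was -0.29 ± 0.14 (unadjusted P = 0.0464, adjusted P = 0.813), and no other member had an interaction with an unadjusted P below 0.05. Leaving out KO eTreg 2 and 3 left the eTreg genotype estimate at -0.12 and the interaction at -0.24.

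Nr4a1 had the clearest subset pattern of the members. Its signals in cTregs were 11.48, 11.42, 11.55 and 11.37 in controls and 11.58, 11.50 and 11.38 in KO. In eTregs they were 11.11, 11.19, 10.99 and 11.24 in controls and 11.22, 11.26 and 11.20 in KO. Every eTreg array was therefore below every cTreg array of either genotype, and group membership took up 81% of its variance against a median of 24.5% over all clusters. The difference was small: -0.32 ± 0.09 in controls (1.25-fold lower, 95% interval -0.51 to -0.13, adjusted P = 0.0608) and -0.26 ± 0.10 in KO (1.20-fold lower, adjusted P = 0.255). Unlike Jun and Fos, KO eTreg 2 and 3 did not stand apart from KO eTreg 1, and without them the KO subset difference was -0.27 (adjusted P = 0.778). Neither genotype estimate, 0.10 ± 0.10 in eTregs (0.09 without KO eTreg 2 and 3) and 0.03 ± 0.10 in cTregs, passed the test. Egr1 lay between 11.35 and 11.82. Its largest estimate was -0.20 ± 0.10 between subsets in controls (adjusted P = 0.428), and in KO that difference was -0.01 ± 0.11 (0.05 without KO eTreg 2 and 3).

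Dusp1 was the steadiest member. It was 14.09, 14.04, 14.08 and 14.08 in control cTregs, 14.02, 13.95 and 14.02 in KO cTregs, 14.08, 14.18, 14.22 and 14.18 in control eTregs and 14.08, 14.09 and 14.09 in KO eTregs. Its range of 0.27 was below that of all but 0.84% of clusters, and its mean signal was above that of 99.98% of them. Whether signals this high on the array compress differences was not tested. All 3 KO cTreg arrays were below all 4 control cTreg arrays (-0.07 ± 0.08, adjusted P = 1) and below all 3 KO eTreg arrays (0.09 ± 0.09 for eTregs minus cTregs, adjusted P = 0.736; 0.08 without KO eTreg 2 and 3). Its 95% intervals lay between -0.26 and 0.28 in all 4 contrasts.

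Of the 10 members, Atf3 alone was called, in 1 contrast. In limma, 0 of 10 were called for KO against control in eTregs (0.117% of all clusters were) and 0 in cTregs (0.045%). Between subsets 0 were called in controls (3.06%) and 1, Atf3, in KO (2.35%). For the interaction 0 were called, as for all clusters (0%). The study threshold passed 1 member, Atf3, in each of the KO against control contrast of eTregs (2.72% of clusters) and the subset contrast of KO (5.81%), and none in cTregs (0.576%), between control subsets (4.72%) or for the interaction (3.05%). At an unadjusted P below 0.05 alone the counts were 1, 0, 2, 5 and 1 of 10 for the eTreg genotype, cTreg genotype, control subset, KO subset and interaction contrasts, against 8.03%, 4.01%, 12.8%, 13.8% and 6.12% of all clusters. Arrays did not overlap for 1 member (Jund) between genotypes in eTregs (6.85% of clusters), 1 (Dusp1) in cTregs (5.05%), 2 (Jun and Nr4a1) between control subsets (11.1%) and 4 (Fos, Jund, Nr4a1 and Dusp1) between KO subsets (14%). The median size of change over the members was 0.11 and 0.09 in the genotype contrasts, near the 0.11 and 0.09 of all clusters, and 0.17 and 0.16 between subsets in controls and KO, where all clusters had 0.10 and 0.13. The subset and genotype contrasts share arrays pairwise, so their values are not independent of each other.

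**Figure D3:**
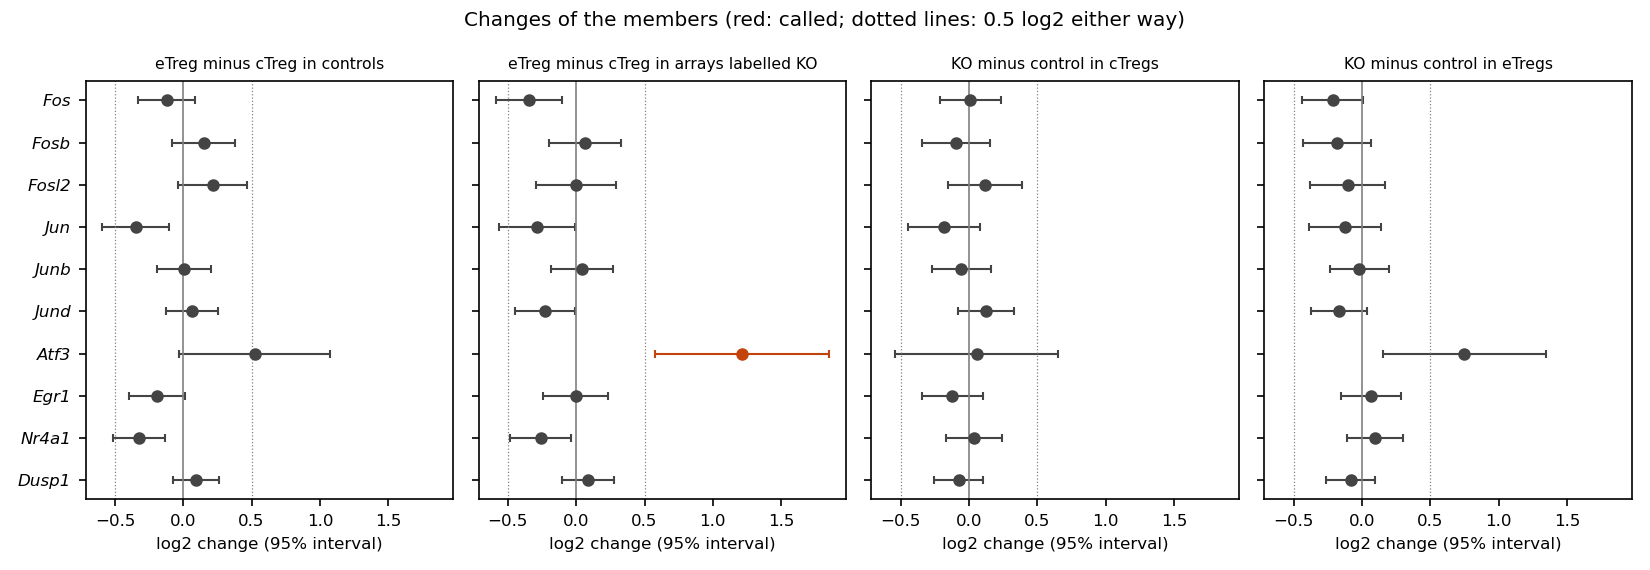
Log2 change of each member (x axis) with its 95% interval in the 4 contrasts named above the panels; dotted lines mark 0.5 in either direction and red marks a called gene. Atf3 in the subset contrast of KO arrays, at 1.22, is the one red point.

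Within groups the members varied mostly apart from one another. Taking each member's differences from its group means over the 14 arrays, 30 of the 45 pairs correlated positively, with a median r of 0.12 and values from -0.44 to 0.68. The highest were Junb with Jund (0.68) and Junb with Atf3 (0.66), and the lowest was Fosb with Fosl2. The mean signal of the 10 members stayed between 11.62 and 11.84 on every array. The clusters closest to that mean over the 14 arrays were Metrn (Pearson r = 0.85), Ngfrap1 (0.84), Lancl1 (0.82), Tmem129 (0.81) and Olfr344 (0.81). On differences from the group means they were Fam83e (0.89), Slc24a4, Ngfrap1, Lancl1 and Zfp282 (0.87 each). These are the highest values of r over all other clusters, from 14 arrays that share groups, and are given as a description.

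Some close relatives of the members were called between subsets. Nr4a2 was higher in control eTregs than in control cTregs by 0.51 ± 0.10 (1.43-fold, adjusted P = 0.00614), opposite in sign to its paralog Nr4a1. It was 11.33, 11.35, 11.41 and 11.55 in control cTregs and 11.78, 11.99, 11.92 and 12.00 in control eTregs. In KO the Nr4a2 difference was 0.14 ± 0.12 (adjusted P = 0.647), and the interaction was -0.37 ± 0.15 (unadjusted P = 0.0253, adjusted P = 0.789). Without KO eTreg 2 and 3 these became 0.24 and -0.27. Egr2, a paralog of Egr1 that is induced by the antigen receptor and restrains T cell activation, was higher in control eTregs by 0.54 ± 0.14 (adjusted P = 0.0406). Its KO estimate was 0.51 ± 0.16 (adjusted P = 0.13), called with same-numbered arrays as pairs (adjusted P = 0.0389) and 0.31 without KO eTreg 2 and 3 (adjusted P = 0.851). Neither call was secure: the Nr4a2 difference dropped under 0.5 without control cTreg 1 or 2 or control eTreg 2 or 4, down to 0.49, and Egr2 lost its call in 9 of the 14 fits that left out 1 array, with adjusted P up to 0.125. Nr4a3 (0.17 ± 0.15 in controls, -0.02 ± 0.17 in KO) and Egr3 (0.14 ± 0.10 and 0.00 ± 0.11) were not called. Without KO eTreg 2 and 3 their KO values were 0.25 and 0.11. Egr3 had 3 rows, of which the one with the highest mean was used, and the others gave -0.14 and 0.03 in controls.

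Dusp10, which like Dusp1 inactivates p38 and JNK, was lower in eTregs of both genotypes. It was 13.17, 13.16, 13.10 and 13.02 in control cTregs against 12.53, 12.54, 12.51 and 12.39 in control eTregs, and 13.23, 13.13 and 13.23 in KO cTregs against 12.80, 12.70 and 12.45 in KO eTregs. The groups did not overlap in either genotype. Dusp10 differed by -0.62 ± 0.09 in controls (1.54-fold lower, adjusted P = 0.00085) and by -0.55 ± 0.11 in KO (1.46-fold lower, adjusted P = 0.012). The KO call was lost without KO cTreg 3 or KO eTreg 3 and, at -0.40 (adjusted P = 0.431), without KO eTreg 2 and 3. Of 36 other immediate early genes, 2 were called higher and 1 lower between control subsets (3.06% of all clusters were called), 1 lower between KO subsets (2.35%) and none between genotypes (0.117% in eTregs and 0.045% in cTregs). At an unadjusted P below 0.05 stood 15 of the 36 between control subsets (12.8% of clusters), 13 between KO subsets (13.8%), 1 between genotypes in eTregs (8.03%) and 0 in cTregs (4.01%).

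Of 14 further AP-1 family and partner genes 13 were measured. Between control subsets 3 of them were called, where 3.06% of all clusters were, and between KO subsets 1 was (2.35%). Maf, a large Maf factor of effector T cells, was higher in eTregs by 1.36 ± 0.13 in controls (2.57-fold, adjusted P = 1.22e-05) and by 1.15 ± 0.15 in KO (2.22-fold, adjusted P = 0.000447). Its cTreg signals were 8.97 to 9.38 and its eTreg signals 10.06 to 10.59 over both genotypes. Without KO eTreg 2 and 3 the KO difference was 0.86 (adjusted P = 0.0777). Batf, the Jun partner that is required for effector Treg differentiation, was higher in eTregs by 0.64 ± 0.11 in controls (1.56-fold, adjusted P = 0.00352). Its KO estimate of 0.52 ± 0.13 had an adjusted P of 0.05003 and was not called, although the arrays did not overlap in either genotype. It was called with same-numbered arrays as pairs (adjusted P = 0.0389) and was 0.28 without KO eTreg 2 and 3 (adjusted P = 0.807). Bach2, which competes with AP-1 at its sites and holds T cells in a resting state, was lower in control eTregs, with a log2 difference of -0.83 ± 0.13 (1.78-fold lower, adjusted P = 0.00105). In KO its estimate was -0.48 ± 0.15 (adjusted P = 0.112), with an interaction of 0.35 (adjusted P = 0.847). Without KO eTreg 2 and 3 these were -0.21 and 0.62 (adjusted P = 0.464 for the latter). Fosl1 (Fra-1), the closest relative of Fosl2, differed by -0.13 ± 0.16 in controls and -0.15 ± 0.18 in KO (0.15 without KO eTreg 2 and 3) and was not called. None of the 13 was called between genotypes (0.117% and 0.045% of clusters were), where 0 in eTregs (8.03% of clusters) and 1 in cTregs (4.01%) had an unadjusted P below 0.05.

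**Figure D4:**
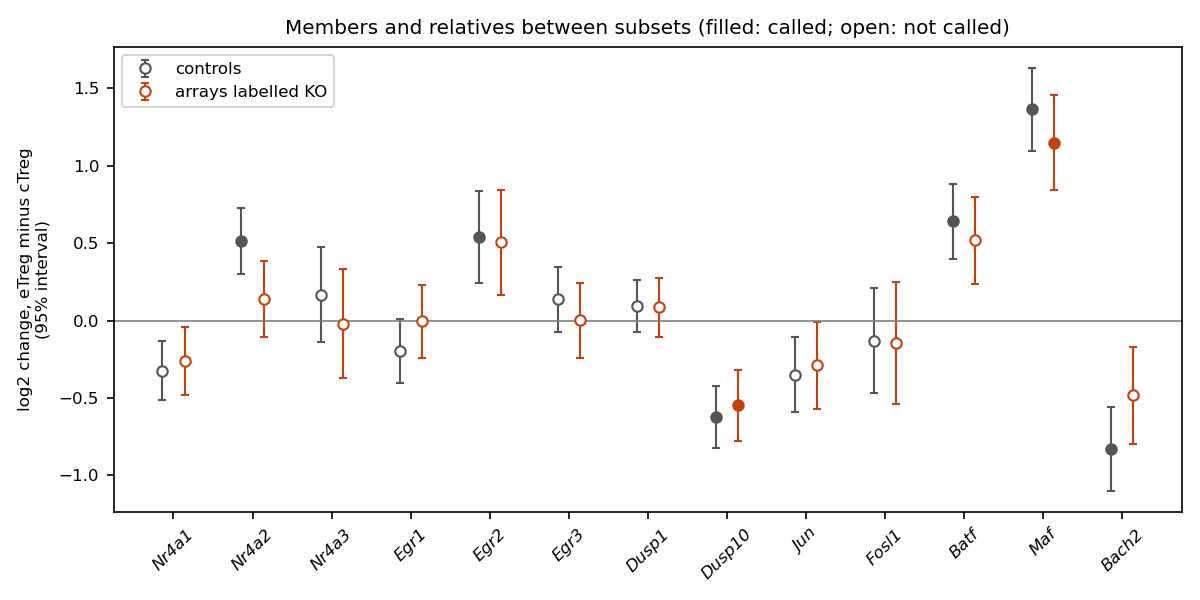
Log2 change from cTregs to eTregs (y axis, with 95% interval) for members and their relatives, in controls (grey) and KO arrays (orange); filled points are called. Nr4a2, Egr2, Batf and Maf lie above 0 and Dusp10 and Bach2 below 0 in controls, whereas Nr4a1, Egr1, Dusp1 and Jun are not called.

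The 20 kinases and factors that act upstream of the members gave 1 call, between KO subsets, where 2.35% of all clusters were called. Elk3, a ternary complex factor that acts with SRF at promoters such as that of Fos, was higher in KO eTregs than in KO cTregs by 0.50 ± 0.13 (1.42-fold, adjusted P = 0.0486) and had an estimate of 0.36 ± 0.11 in controls (adjusted P = 0.099). It lay at the threshold, and 12 of the 14 fits that left out 1 array did not call it, with changes of 0.37 to 0.62. Without KO eTreg 2 and 3 its KO estimate was 0.34 (adjusted P = 0.713). None of the 20 was called between genotypes, where 1 in each subset had an unadjusted P below 0.05 (8.03% of clusters in eTregs and 4.01% in cTregs).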

How the data were processed

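Clariom S arrays of 14 sorted Treg samples were analysed. The deposited log2 values were made by the authors with RMA in Affymetrix Expression Console 1.1 per the labels (background correction, quantile normalisation and probe summary), which evens out shifts shared by all genes. Of 28846 entries, 6640 controls and 3 without a symbol were dropped. Groups came from sample titles.

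limma 3.58.1 in R 4.3.3 was fitted to 4 group means on all 14 arrays (lmFit, eBayes, 10 residual degrees of freedom), with two-sided P values adjusted by Benjamini-Hochberg over 22203 clusters. The script was tested on simulated data. The number of arrays limits the precision, and the array medians of 23 background probe sets were 6.00 to 6.30. Figures used matplotlib in Python.

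The members and lists were chosen with earlier results of these data known. Named were all members and list genes that were called with arrays not overlapping (at most 6 per list and contrast). Also named were Fosl1, Batf, Egr2, Egr3, Nr4a2 and Nr4a3, sort genes, Atg14 and the 5 clusters most like the members' mean. Siglech and the other cell type markers named were chosen after their values were seen. Alternatives covered scaling, a signal filter, array weights, the prior variance, the arrays fitted and a replicate block.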

Additional observations from a re-analysis of the deposited data

Results flagged for a closer look

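A test for a single distant array within groups of 4 (the gap to the nearest array over the group's range, against its published 95% critical value) marked 2 of 20 member groups, where chance marks about 1 in 20. Fosb on control eTreg 4 had a ratio of 0.89: at 13.37 it lay above the other control eTreg arrays, at 13.24 to 13.25. Dusp1 on control cTreg 2 had a ratio of 0.952, at 14.04 against 14.08 to 14.09 on the other 3. Both gaps are small on the log2 scale.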

How the results depend on the processing

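No member estimate reversed once called, and the counts of members called stayed at 0 for KO against control in cTregs, for control subsets and for the interaction under every alternative. For KO against control in eTregs the count was 0, 1 under the study threshold and 0 to 1 when 1 array was left out (1 without KO eTreg 1). For subsets in KO arrays the count of 1 (Atf3) became 0 with array medians subtracted (adjusted P = 0.0518), with a trended robust prior (0.0536), in a fit of only those groups (0.204) and with KO eTreg 2 and 3 both left out (chosen after seeing the data, adjusted P = 0.834). It was 0 to 1 when 1 array was left out, with adjusted P from 0.00166 to 0.198: lost in 10 of 14 fits, those without control cTreg 2, 3 or 4, KO cTreg 2 or 3, control eTreg 2, 3 or 4, or KO eTreg 2 or 3. With the replicate block it was 0 (adjusted P = 0.0738), and no other count of members changed under the block, which also called Batf and Egr2 between KO subsets. Both subsets came from the same mice, but no label ties an array's number to a mouse. Same-numbered cTreg and eTreg arrays correlated at 0.07 to 0.22 in controls and 0.04 to 0.30 in KO in their deviations from group means. Of these pairs, 3 of 4 in controls and 2 of 3 in KO passed 0.1. Every array matched its own number best except control cTreg 4, closer to control eTreg 2, and KO eTreg 3, closer to KO cTreg 2. The consensus correlation within the block was 0.24. Most arrays thus went with their own number, though the pairing is not stated. The fit without the block was kept as the main one, and the blocked value is given where it changes a call.

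Over all clusters the eTreg genotype contrast called 26, but 435 with array weights, 452 without KO eTreg 1, 14 with the signal filter and 10 in a fit of the 2 groups. The KO subset contrast called 522, but 961 with array weights, 133 in the 2-group fit, 1236 without KO eTreg 1 and 74 without KO eTreg 2 and 3. Array medians subtracted turned 3 member estimates in sign, each within 0.05 of 0 (Fos in cTregs, Junb between control subsets, Dusp1 interaction), and moved Egr2 (0.49) and Nr4a2 (0.47) in controls under 0.5. The filter kept all 10 members. No member had a second row to try. The cause of these changes was not tested.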
